A study of Mus musculus with 7 samples.

Results

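The sites described here are 12191 CTCF binding sites of mouse liver that lie away from gene starts, carry a CTCF motif and overlap peaks of both variant cohesin subunits, Stag1 and Stag2. They are called both-Stag sites below. They were taken from the deposited class list, in which 52436 CTCF sites are sorted into 4 classes, and they belong to the class of other CAC sites (cohesin-and-CTCF sites that anchor no predicted loop or domain), which holds 26970 sites. Of these, 26257 lie on chromosomes 1 to 19, 20064 of the latter have a scored CTCF motif, and 14701 of those have a summit more than 1 kb from every protein-coding transcription start. Both Stag flags were set at 12191 of the 14701 sites. The remaining sites served for comparison. They comprise 1817 sites with the Stag2 flag only and 693 sites lacking the Stag2 flag, of which 142 carried the Stag1 flag and 551 neither. The chromatin came from livers of male Crl:CD1(ICR) mice of 8 weeks of age, with 4 ChIP-seq libraries for CTCF and 3 for Rad21, a core subunit of cohesin. Per the study's methods, 1 of the CTCF libraries had no Rad21 library from its liver, and the codes in the library titles differ between the factors and do not show which livers the others share. The peak lists pool all libraries of a factor, so no value below has a spread between mice, and each p-value compares sites of 1 pooled list. The flags record whether a site overlaps a peak in public Stag1, Stag2 or Top2b data and give no strength. All 12191 sites overlapped a Rad21 peak of the pooled list. The class itself asks for a cohesin peak in 1 or more of the individual livers.

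CTCF is a zinc finger protein that recognises a long, asymmetric DNA motif. Cohesin is a ring-shaped complex that extrudes loops of chromatin until it is halted at bound CTCF, preferentially when the motif points toward the loop. Each cohesin ring contains Rad21 and 1 of the alternative subunits Stag1 and Stag2. Stag2-containing cohesin is the more dynamic form, and Stag1-containing cohesin is the form more closely associated with CTCF sites. Top2b, topoisomerase II beta, relieves torsional stress in DNA and is often found at sites of CTCF and cohesin.

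A CTCF motif of 19 bases was learnt here from the 1855 usable sites among the 2000 strongest domain anchors, none of which is a both-Stag site, and its best match was located in every site. The match lay on the deposited motif strand at 12033 both-Stag sites (98.7%). Where a single base was in the majority among the learning sites, it is given in NNNCCACNAGGGGGCGCNN, and N stands for the other positions. The motifs of 4 of the 5 both-Stag sites with the highest CTCF scores follow, each with 15 bases on either side, since they show the sequence on which the strongest binding of this set was measured. They are written 5′ to 3′ along the motif strand in mouse build mm9, with the motif in capitals.
chr4:88287039-88287057, − strand, nearest start Ifna13: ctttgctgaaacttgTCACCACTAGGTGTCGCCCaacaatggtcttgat
chr7:144670153-144670171, + strand, nearest start Glrx3: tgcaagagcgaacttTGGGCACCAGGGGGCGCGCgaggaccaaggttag
chr9:106114458-106114476, − strand, intron of Twf2: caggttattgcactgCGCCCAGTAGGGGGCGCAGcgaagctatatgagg
chr5:120552937-120552955, − strand, nearest start Rbm19: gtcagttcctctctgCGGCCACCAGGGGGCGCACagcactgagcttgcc

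The motif word of the strongest both-Stag site has 3 exact copies in the genome, whereas each of the other 3 words shown occurs once. The neighbourhood of this site is shown over 121 bases because it places both summits on 1 sequence. In the window chr4:88286988-88287108, read along the − strand with the motif in capitals, the CTCF summit and the Rad21 summit both fall on base 49, which is 12 bases 5′ of the motif centre.
chr4:88286988-88287108, − strand: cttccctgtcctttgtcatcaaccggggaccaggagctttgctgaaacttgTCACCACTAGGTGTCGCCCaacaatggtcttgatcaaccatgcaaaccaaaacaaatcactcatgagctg

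The motif words shared by most both-Stag sites are shown next, since they recur at many positions of the genome. Capitals mark the bases that equal the majority base of the learnt motif.
Word in 165 both-Stag sites: aggCCAgaAGaGGGCatca
Word in 59 both-Stag sites: aggCCAgaAGaGGGCaCca
Word in 49 both-Stag sites: aggCCAgaAGaGGGCaCtg

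The peak score is 10 times the −log10 of the q-value of the peak, so that it rises both with the number of fragments and with their excess over the local background. The site on chromosome 4 from 88286866 to 88287273 had the highest CTCF score of all both-Stag sites, 36857, with 2990 CTCF fragments at the summit, a fold of 44.9 over local background and a Rad21 score of 2586. It is intergenic and lies 3303 bp from the nearest protein-coding start, that of the interferon gene Ifna13. The site on chromosome 7 from 144669862 to 144670384 followed with a CTCF score of 24065 and a Rad21 score of 7363, 40799 bp from the start of Glrx3, a glutaredoxin. Rad21 strength thus did not follow CTCF strength in order among these leading sites.

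An intronic site of Twf2, which encodes an actin-binding protein, lies on chromosome 9 from 106114145 to 106114694 and had a CTCF score of 20833 and a Rad21 score of 4630. On chromosome 5 from 120552736 to 120553240, near Rbm19, the CTCF score was 20731 while the Rad21 score of 1283 was the lowest of the leading 10. Further members of the leading 10 were near Caln1 (CTCF score 19524), near Cd83 (19416), in a coding exon of the erythroid transcription factor gene Klf1 (18280), near Tmem211 (17659) and near Atg5, an autophagy gene (16399). Of these 10 sites 7 were intergenic, 2 intronic and 1 exonic, 9 carried the Top2b flag, all 10 had a CpG within the motif, and 9 had a motif word that occurs once in the genome. Their Rad21 scores ranged from 1283 to 9355, and even the lowest stood at a percentile of 89.2 among both-Stag sites. The site without the Top2b flag was the one near Tmem211. Over all both-Stag sites 53.8% carried this flag, 34.1% had a CpG within the motif and 71.5% had a word that occurs once. In the strongest of 10 bins of CTCF score the flag was set at 89.5% of both-Stag sites.

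The highest Rad21 score of all both-Stag sites was 9440, on chromosome 8 from 122702766 to 122703405, 1721 bp from the start of Fam92b, with 987 Rad21 fragments and 868 CTCF fragments at the summits. The sites that follow are the next by Rad21 score outside the leading 10 by CTCF score, of which the site near Cd83 had a Rad21 score of 9355. An intronic site of Lif, the gene of the cytokine leukaemia inhibitory factor, had a Rad21 score of 8989 and a CTCF score of 16213. An intronic site of the imprinted potassium channel gene Kcnq1 had a Rad21 score of 8925 with a CTCF score of 5519, and contained 899 Rad21 fragments against 628 CTCF fragments. Further sites lay near Arhgef19 (Rad21 score 7779) and near Srsf5, a splicing factor gene (7730). All 5 sites outside the leading 10 carried the Top2b flag. It was set at 91.5% of both-Stag sites in the strongest of 5 equal classes of Rad21 score. At the other end, the lowest CTCF score, 130, was shared by an intergenic site 68414 bp from Zfp281, an intronic site of Slc12a7 and an intronic site of Ttll8. Their Rad21 scores were 57, 277 and 160, and the Top2b flag was set at the sites in Slc12a7 and Ttll8.

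Over all both-Stag sites the CTCF score had a median of 1168, quartiles of 519.5 and 2302.5, and a range of 130 to 36857. The Rad21 score had a median of 294, quartiles of 148 and 655, and a range of 21 to 9440. At the summits the median was 152 CTCF fragments and 60 Rad21 fragments, and the ratio of Rad21 to CTCF fragments, which depends on the depth of both pools, had a median of 0.455. The scores of both factors moved together across both-Stag sites (Spearman's rho = 0.647 over 12191 sites), whereas the coefficient was 0.261 over Stag2-only sites and 0.345 over sites lacking Stag2. Over anchors with a Rad21 peak it was near that of both-Stag sites, 0.630 for anchors of topologically associating domains (TADs) and 0.621 for anchors of loops predicted within them. These coefficients describe sites that share libraries and are not tests. The Rad21 score spanned a narrower range at Stag2-only sites (quartiles of 66 and 162) and at sites lacking Stag2 (53 and 126). The part of this range in their lower coefficients was not tested.

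Both-Stag sites were the most strongly bound of the 3 sets of distal motif sites. The median CTCF score of 1168 compared with 472 at Stag2-only sites, a ratio of 2.47, and with 424 at sites lacking Stag2, a ratio of 2.75. The probability that a both-Stag site exceeds a site of the other set (AUC, for which 0.5 means no difference) was 0.710 against Stag2-only sites (n = 12191 and 1817 sites, 95% interval 0.699 to 0.721, Kolmogorov-Smirnov D = 0.320, adjusted p = 1.72e-143) and 0.736 against sites lacking Stag2 (n = 693, 0.720 to 0.752, D = 0.355, adjusted p = 5.38e-74). The direction was the same on 19 of 19 chromosomes in either comparison. All p-values here are from the two-sided Kolmogorov-Smirnov test, which the study used for its own pairwise comparisons, with Benjamini-Hochberg adjustment over 12 tests. In sets of this size small differences reach a low p, so the size carries the comparison.

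Rad21 was higher at both-Stag sites as well. The median Rad21 score was 294 at both-Stag sites, 99 at Stag2-only sites and 80 at sites lacking Stag2, ratios of 2.97 and 3.67. By summit fragments the ratios were smaller and nearly equal for both factors, 1.82 and 2.14 for Rad21 against 1.81 and 2.03 for CTCF. The AUC was 0.815 (n = 12191 and 1817, 0.806 to 0.823, D = 0.485, adjusted p = 8.10e-323) and 0.851 (n = 693, 0.840 to 0.861, D = 0.560, adjusted p = 1.90e-193), again with 1 direction on 19 of 19 chromosomes. Among sites with both scores of at least 200, which left 7776 both-Stag sites, 275 Stag2-only sites and 71 sites lacking Stag2, the AUC for Rad21 was 0.780 and 0.657 and that for CTCF 0.679 and 0.653. Since Stag1 and Stag2 are partners of Rad21 in the same complex, and a flag requires a called peak, the flags and the Rad21 score are measures of related quantities, and their part in each other was not tested. Both kinds of anchor, of TADs and within them, were stronger still, with median CTCF scores of 2480.5 and 3009 over 5722 and 8978 anchors. The anchors were limited neither by the distance to a start nor by the Stag flags, and 90.0 and 94.8% of them carried the Stag1 flag, so that their values here and below come from sets chosen by other rules. Their median Rad21 scores were 771 and 982, over the 5282 and 8691 of them that overlapped a Rad21 peak of the pooled list. The authors chose intra-TAD anchors partly on these scores, so those values stand beside the both-Stag sites without a test.

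**Figure D1:**
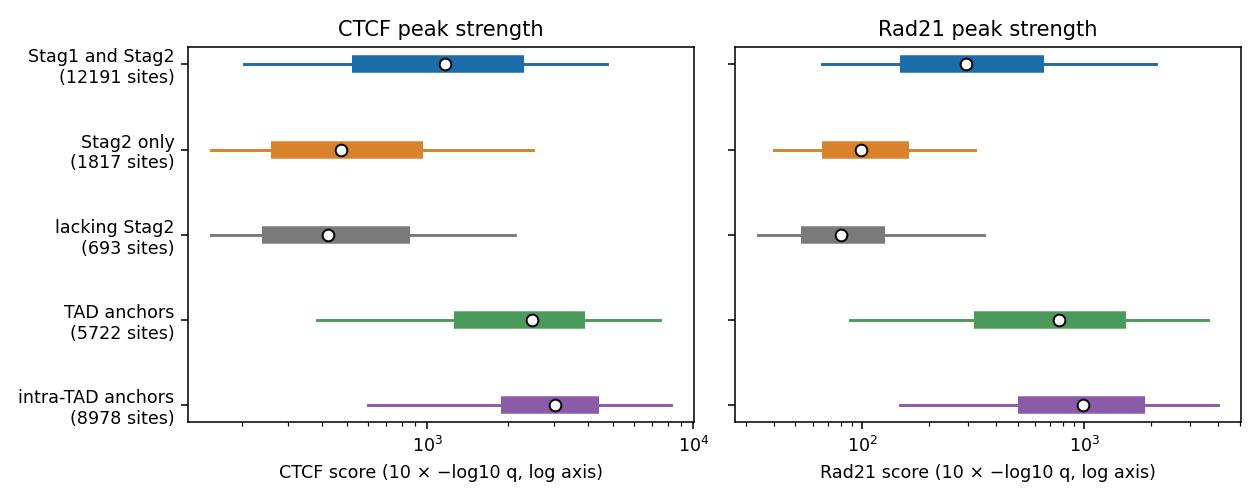
CTCF (left) and Rad21 (right) peak scores on log axes for both-Stag sites, the other distal motif sets and both kinds of anchor. Dots are medians, thick bars run between quartiles and thin lines from the 5th to the 95th percentile; both-Stag sites, with medians of 1168 and 294, lie between the other distal sets and the anchors.

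Since CTCF and Rad21 strength are related, Rad21 scores were also compared at equal CTCF strength, in 10 equal bins of CTCF score over all 14701 distal motif sites. In the weakest bin the median Rad21 score was 124 at both-Stag sites, 84.5 at Stag2-only sites and 63 at sites lacking Stag2. In the strongest bin the medians were 1282.5, 221 and 233. The ratio of both-Stag to Stag2-only medians grew from 1.47 in the weakest bin to 5.80 in the strongest, and that to sites lacking Stag2 from 1.97 to 5.50. These are ratios of scores, and by fragments the sets stood closer. The ratio of Rad21 to CTCF summit fragments in the weakest bin was 0.805 at both-Stag sites, 0.662 at Stag2-only sites and 0.588 at sites lacking Stag2. In the strongest bin it was 0.327, 0.107 and 0.124. Both-Stag sites were higher in 10 of 10 bins in both comparisons, and the mean AUC over bins was 0.790 and 0.811. The Rad21 score of the other sets changed far less along CTCF strength, from 84.5 to 221 at Stag2-only sites, than that of both-Stag sites. The strongest bins hold few sites of the other sets, 42 and 12 in the last.

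**Figure D2:**
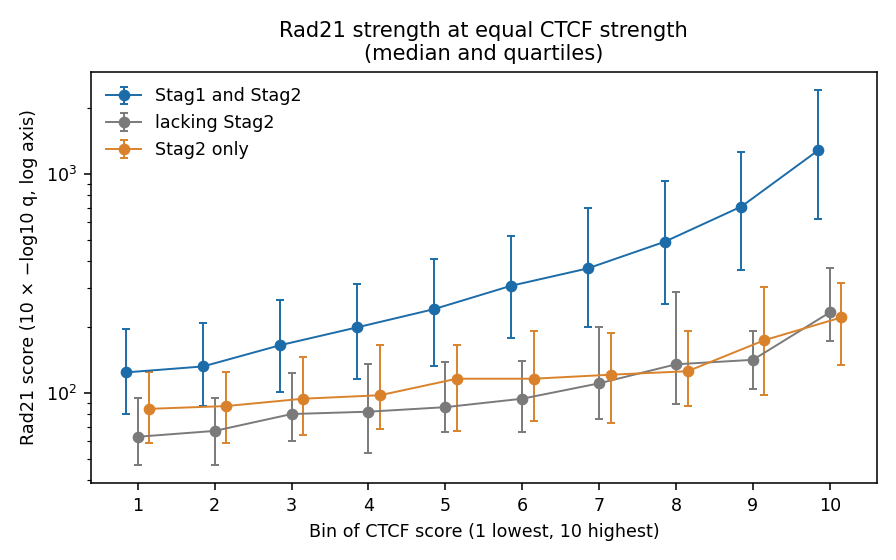
Rad21 score (log axis) against bins of CTCF score from weakest (1) to strongest (10). Points are medians and bars quartiles for both-Stag sites (blue), Stag2-only sites (orange) and sites lacking Stag2 (grey); the blue medians run from 124 to 1282.5 and the orange ones from 84.5 to 221.

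The Top2b flag was set at 6555 both-Stag sites, a share of 53.8% (95% Wilson interval 52.9 to 54.7%), close to the 54.8% of the whole list of 52436 sites, which includes the X chromosome. Among distal motif sites this share stood apart. It was 22.0% at Stag2-only sites (20.1 to 23.9%) and 6.49% at sites lacking Stag2 (4.89 to 8.58%). The difference was 31.8 percentage points (Newcombe interval 29.7 to 33.9) and 47.3 points (45.0 to 49.1), with both-Stag sites higher on 19 of 19 chromosomes in both comparisons. At equal CTCF score the mean difference over 10 bins was 30.2 and 40.9 points, and both-Stag sites were higher in 10 of 10 bins. At equal Rad21 score it was 15.4 points against Stag2-only sites, over the 9 bins with enough sites, and 29.8 points against sites lacking Stag2. TAD anchors carried the flag at 71.0% and intra-TAD anchors at 77.7%.

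Within both-Stag sites the flag followed CTCF strength along a curve with a minimum. It was set at 44.8% of sites in the weakest CTCF bin (41.6 to 48.0%), at 34.5% in the third bin (31.7 to 37.3%), at 54.5% in bin 7 and at 89.5% in the strongest bin (87.8 to 91.0%). Stag2-only sites had their highest share, 31.1%, in the weakest bin and their lowest, 14.1%, in bin 7, above which the share was 22.8, 28.0 and 31.0% in the 3 strongest bins.

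**Figure D3:**
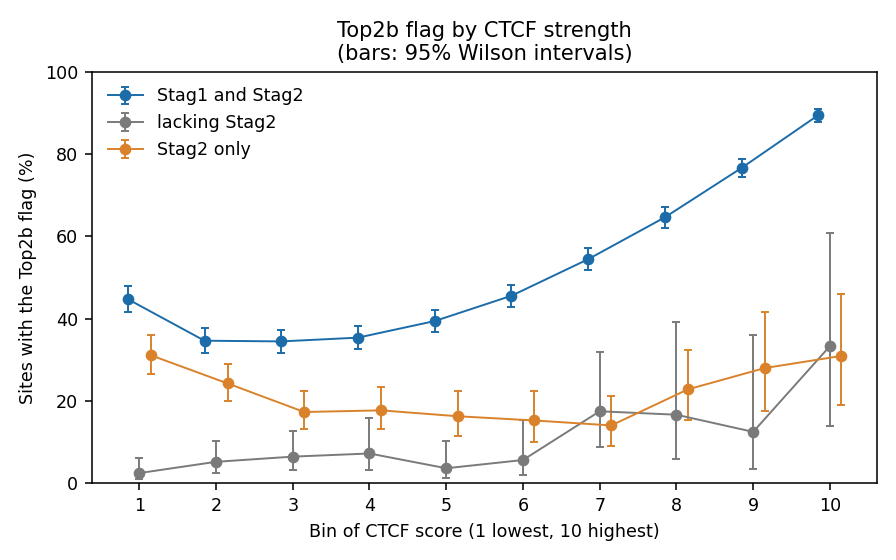
Share of sites with the Top2b flag (%) by bin of CTCF score, weakest to strongest, with 95% Wilson intervals. Both-Stag sites (blue) start at 44.8%, pass through 34.5% in bin 3 and reach 89.5% in bin 10, above both other sets in each bin.

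Along Rad21 strength the share of both-Stag sites with the flag rose without a minimum. In 5 equal classes of Rad21 score it was 23.2, 36.3, 50.5, 67.4 and 91.5%. Within the weakest of 5 equal classes of CTCF score it ran from 24.1% of 1114 sites in the weakest Rad21 class to 74.2% of 132 sites in class 4, and 8 of 10 sites in the strongest Rad21 class carried it. Within the strongest CTCF class it ran from 35.2% of 54 sites to 95.3% of 1422 sites. In the weakest Rad21 class the share lay between 20.4 and 35.2% over the 5 classes of CTCF score. In Rad21 class 2 it was 40.9% in the weakest CTCF class, 28.2% in CTCF class 3 and 54.3% in the strongest. In Rad21 class 4 it was 74.2% in the weakest CTCF class, 55.4% in CTCF class 2 and 79.0% in the strongest. The share was lowest in CTCF class 2 or 3 within each Rad21 class. Both-Stag sites with the flag had a median CTCF score of 1759 against 774 without it, a median Rad21 score of 508 against 182, and a median GC content of 49.8% against 46.3% in the 201 bp around the summit. Their distance to the nearest start was alike, with medians of 20855 and 20736 bp. The Top2b data came from other libraries and their depth is not known here, so a missing flag says only that no peak was called.

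The motif score, a log-odds score of the best match to the CTCF motif, had a median of 16.0 at both-Stag sites, with 5th and 95th percentiles of 9.06 and 22.2. It was 15.2 at Stag2-only sites (n = 12191 and 1817, AUC = 0.556, 0.542 to 0.570, D = 0.0862, adjusted p = 1.48e-10), with the same direction on 19 of 19 chromosomes, and 15.7 at sites lacking Stag2, a difference that did not pass the test (AUC = 0.522, 0.501 to 0.544, adjusted p = 0.0799). The latter difference passed it among sites with scores of at least 200 (AUC = 0.611) and with Rad21 summits within 100 bp (AUC = 0.532). At equal CTCF score the direction turned. The mean AUC over bins was 0.473 against Stag2-only sites and 0.456 against sites lacking Stag2, with both-Stag sites higher in 2 of 10 bins in each comparison. In CTCF bin 8, for example, the median motif score was 17.1 at 1360 both-Stag sites and 18.4 at 92 Stag2-only sites. Across both-Stag sites motif score was related to CTCF score (Spearman's rho = 0.359) and less to Rad21 score (rho = 0.152).

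The bases of the motif were nearly invariant at a few positions. Counted from 1 at the 5′ end of the 19-base word, the majority base was present at both-Stag sites at 98.6% for C in position 5, 99.2% for G in position 10 and 97.7% for G in position 13. Among positions with a consensus letter, those that varied most between sets were 7 and 12. Position 7 held C at 44.1% of both-Stag sites, 33.7% of Stag2-only sites, 32.9% of sites lacking Stag2, 55.4% of TAD anchors and, among intra-TAD anchors, 53.2%. Position 12 held G at 62.2% of both-Stag sites, 72.9% of Stag2-only sites, 75.8% of sites lacking Stag2, 57.9% of TAD anchors and, among intra-TAD anchors, 63.7%. At position 7 the both-Stag sites lay between the other distal sets and both kinds of anchor, and at position 12 between the 2 kinds of anchor. A CpG, the dinucleotide whose methylation can impede CTCF binding, was present in the word at 34.1% of both-Stag sites (33.3 to 35.0%), 40.5% of Stag2-only sites, 42.4% of sites lacking Stag2 and 42.7% of TAD anchors. These shares are descriptions without a test.

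Many motif words recur in the genome. In the mouse, copies of short interspersed elements of the B2 family are known to carry CTCF motifs. No repeat annotation was used here, and exact copies of each 19-base word on both strands of the genome were counted instead. Of the both-Stag sites 8717 (71.5%) had a word that occurs once, 1907 (15.6%) a word with 2 to 9 copies, 810 (6.64%) a word with 10 to 99 and 757 (6.21%) a word with 100 copies or more. A word with at least 10 copies, called repeated below, was thus present at 12.9% of both-Stag sites (12.3 to 13.5%), against 13.6% of all sites of the list with a motif on these chromosomes. The share was 24.1% at Stag2-only sites and 27.7% at sites lacking Stag2, so that both-Stag sites were lower, with differences of −11.2 percentage points (Newcombe interval −13.3 to −9.19) and −14.9 points (−18.3 to −11.6), on 19 of 19 chromosomes in either comparison. At equal CTCF score the mean difference over 10 bins was −7.87 points against Stag2-only sites and −9.63 points against sites lacking Stag2, with both-Stag sites lower in 10 and 9 bins, and the latter ran from −22.9 to 4.08 points. At TAD anchors it was 7.25%.

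Both-Stag sites with repeated words had weaker binding and few Top2b flags. The median CTCF score was 1198 at sites with a single-copy word and 789 at sites with a word of 100 copies or more, and the median Rad21 score was 321 and 175. The motif score did not follow this order, with medians of 15.4 and 16.4. Sites with a word of 2 to 9 copies had the highest medians of the copy classes in CTCF score (1392) and motif score (18.0). Their median Rad21 score was 304, so the CTCF score did not fall steadily with copy number. The Top2b flag was set at 60.5% of the 8717 sites with a single-copy word (59.5 to 61.5%) and at 21.3% of the 1567 sites with a repeated word, a difference of −39.2 percentage points (Newcombe interval −41.4 to −36.9). At equal CTCF score the mean difference over 10 bins of both-Stag sites was −33.8 points and at equal Rad21 score −28.4 points, and sites with repeated words were lower in 10 of 10 bins either way. The same order was present at TAD anchors, where 75.2% of sites with a single-copy word and 25.2% of those with a word of 100 copies or more carried the flag. The study kept reads with a unique position only, and its part in these values was not tested.

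**Figure D4:**
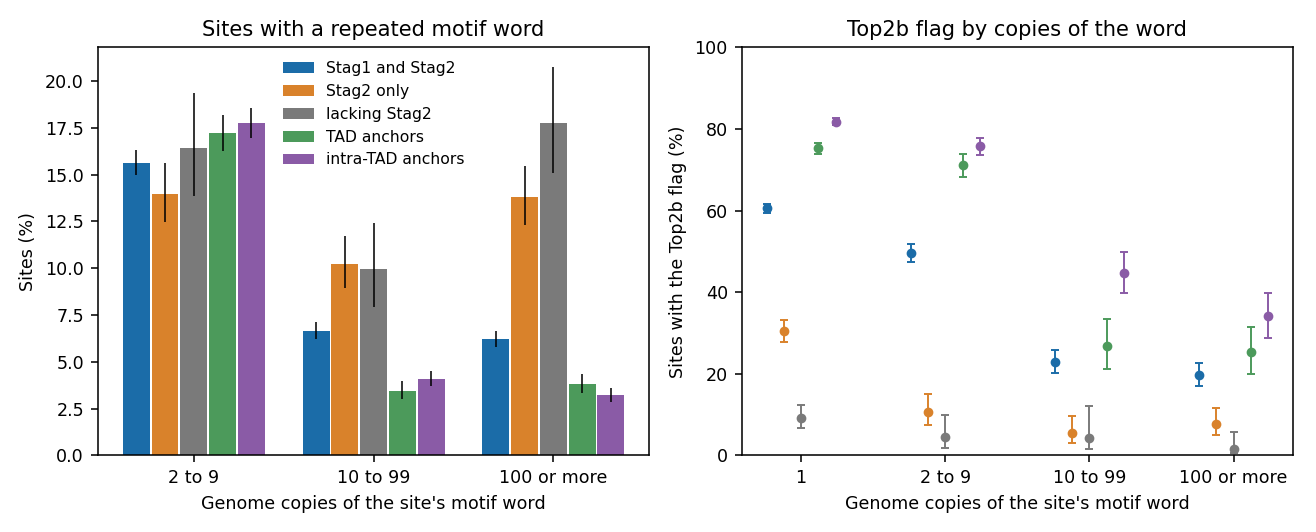
Left, share of sites (%) whose motif word has 2 to 9, 10 to 99 or at least 100 exact copies in the genome, by set, with 95% Wilson intervals. Right, share with the Top2b flag (%) in each copy class; for both-Stag sites (blue) it goes from 60.5% at single-copy words to 19.7% at words of 100 copies or more.

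The commonest word of both-Stag sites, aggCCAgaAGaGGGCatca, was present at 165 of them and has 1401 exact copies in the genome, 11.8% of which are therefore both-Stag sites. CTCF scores at these sites ran from 146 to 7887 with a median of 932, although the word is the same at each. The Top2b flag was set at 26 of the 165 (15.8%). The same word was found at 35 Stag2-only sites, 8 sites lacking Stag2 and 103 anchors. The second word, aggCCAgaAGaGGGCaCca, had a median motif score of 20.4 against 16.4 for the first. The median CTCF score of its 59 both-Stag sites was 938 and 9 of them carried the Top2b flag. The third, aggCCAgaAGaGGGCaCtg, had a median motif score of 20.1 and a median CTCF score of 773 at 49 sites, with 11 flags.

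The sequences beside these words were alike as well. Over the 273 both-Stag sites with 1 of the 3 words, a single base held the majority at 22 of the 30 positions that flank the word, and the commonest base of a position was present at 59.7% of sites on average. At both-Stag sites with a single-copy word no flanking position had a majority base and the mean was 32.3%. The strongest site of each word is shown to set the same or nearly the same word beside its own flanks, with the word in capitals, and the bases on the 3′ side differ between the 3 sites.
chr2:35126405-35126423, − strand, intron of Gsn: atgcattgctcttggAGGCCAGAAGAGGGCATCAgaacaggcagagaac
chr1:34924185-34924203, + strand, intron of Plekhb2: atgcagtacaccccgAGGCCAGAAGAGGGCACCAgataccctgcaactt
chr12:85629574-85629592, + strand, intron of Ptgr2: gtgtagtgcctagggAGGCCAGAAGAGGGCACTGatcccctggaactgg

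The site in Gsn, the gene of the actin-severing protein gelsolin, had a CTCF score of 7887 and a Rad21 score of 2178. That in Plekhb2 had a CTCF score of 7550 and a Rad21 score of 2277, and that in Ptgr2, a prostaglandin reductase gene, had scores of 4185 and 864. All 3 carried the Top2b flag, unlike most sites with the same words.

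CTCF peaks were slightly wider at both-Stag sites, with a median of 446 bp, than at Stag2-only sites, with 418 bp (n = 12191 and 1817, AUC = 0.564, 0.550 to 0.577, D = 0.137, adjusted p = 6.83e-26, 18 of 19 chromosomes), or at sites lacking Stag2, with 393 bp (AUC = 0.664, 0.645 to 0.682, D = 0.252, adjusted p = 8.06e-37, 19 of 19). At equal CTCF score the former difference turned (mean AUC = 0.467) and the latter was smaller (mean AUC = 0.544). The former also turned among sites with both scores of at least 200 (AUC = 0.445). Width rose with strength within both-Stag sites, from a median of 357 bp in the weakest CTCF bin to 502 bp in the strongest.

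The Rad21 summit lay to the 3′ side of the CTCF summit along the motif. At both-Stag sites the displacement had a median of 17 bp with quartiles of −6 and 40 bp, and 69.0% of the sites had a positive value (68.2 to 69.8%). Where the learnt and the deposited strands coincided, CTCF summits had a median position of −8 bp relative to the centre of the motif, and Rad21 summits one of 16 bp. The median displacement was 11 bp at Stag2-only sites (n = 12191 and 1817, AUC = 0.529, 0.515 to 0.543, D = 0.129, adjusted p = 4.52e-23, 16 of 19 chromosomes) and 13 bp at sites lacking Stag2 (AUC = 0.524, 0.503 to 0.546, D = 0.104, adjusted p = 1.53e-06, 10 of 19). The sets differed more in spread than in position. From the 5th to the 95th percentile the displacement ran from −56 to 84 bp at both-Stag sites, from −140 to 162 bp at Stag2-only sites and from −125 to 137 bp at sites lacking Stag2. Restricted to sites with both scores of at least 200, the direction against sites lacking Stag2 turned (AUC = 0.463).

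The displacement of both-Stag sites depended little on CTCF strength in its median, which was between 16 and 18 bp in each of 5 equal classes of CTCF score. Its spread narrowed, from −123 to 143 bp between the 5th and 95th percentiles in the weakest class to −33 to 63 bp in the strongest, and the share with a positive value went from 63.1 to 73.3%. Rad21 summits lay within 100 bp of the CTCF summit at 94.6% of both-Stag sites.

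**Figure D5:**
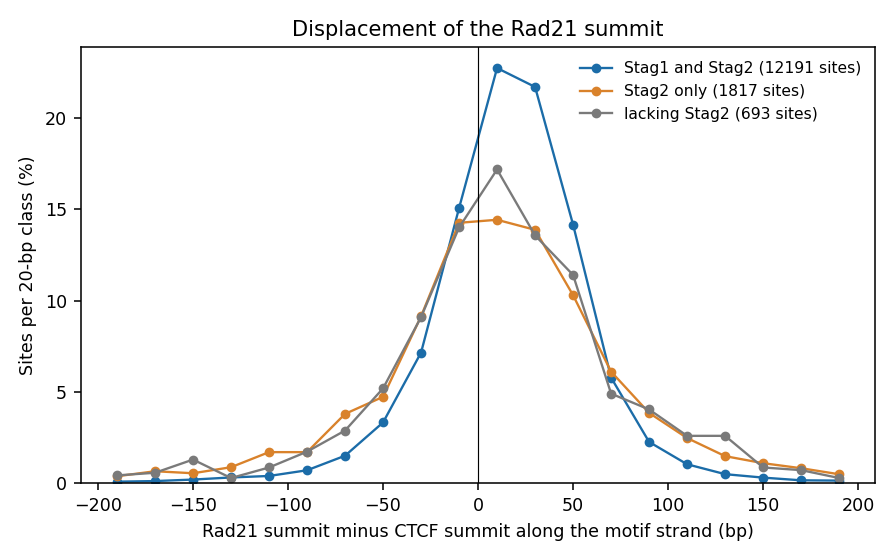
Displacement of Rad21 summits from CTCF summits along the motif strand (bp), as the share of sites in each class of 20 bp (%), for the 3 distal motif sets. The curve of both-Stag sites (blue) reaches 22.7% between 0 and 20 bp and 21.7% between 20 and 40 bp. That of sites lacking Stag2 also peaks between 0 and 20 bp. That of Stag2-only sites is nearly level from −20 to 40 bp, with 14.3, 14.4 and 13.9%.

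Both-Stag sites were more remote from anchors than the other distal sets, although the call against sites lacking Stag2 was lost among sites with scores of at least 200 (AUC = 0.540). The median distance to the nearest start was also larger, 20816 bp against 14958 bp at Stag2-only sites and 18502 bp at sites lacking Stag2. The part of start distance in the distance to anchors was not tested. The median distance to the nearest TAD or intra-TAD anchor was 52435 bp, against 37430 bp at Stag2-only sites (n = 12191 and 1817, AUC = 0.569, 0.555 to 0.582, D = 0.115, adjusted p = 1.31e-18, 19 of 19 chromosomes) and 38358 bp at sites lacking Stag2 (AUC = 0.551, 0.530 to 0.572, D = 0.0919, adjusted p = 3.09e-05, 15 of 19). Within 10 kb of an anchor lay 1636 both-Stag sites (13.4%), and their median CTCF score of 1473.5 was above that of the 561 sites at 500 kb or more, 1002. The motif pointed the same way as that of the nearest anchor at 46.8% of both-Stag sites within 10 kb and at 57.7% of those at 30 to 100 kb. Convergent pairs made up 22.1% within 10 kb (20.2 to 24.2%) and 27.5% at 500 kb or more (23.9 to 31.3%), and divergent pairs 31.1% within 10 kb. The authors used motif strand to choose anchors, and peak scores for those within TADs, and these are the sites that were not chosen. The tests of distance cannot separate the Stag flags from that choice, and its part was not tested. The orders are described without a test.

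Both-Stag sites were spread over all 19 chromosomes at 3.89 to 6.52 sites per Mb, lowest on chromosome 3 and highest on chromosome 11, with 4.93 per Mb in all. Median CTCF scores by chromosome ran from 971 to 1340 and the share with the Top2b flag from 49.8 to 57.7%. Neighbouring sites were a median of 82071.5 bp apart, 1282 of 12172 gaps were under 10 kb and 94 under 1 kb. By the annotation, 5492 sites (45.0%) lay in introns of protein-coding genes, 5828 (47.8%) between genes, 278 (2.28%) in coding exons and 214 (1.76%) in exons of untranslated regions. Strength varied modestly with this position, with median CTCF scores of 1110 in introns, 1225 between genes, 976 in coding exons and 1436 in untranslated exons. In introns the motif lay on the strand of the gene at 49.1% of sites (47.8 to 50.5%), so no preference for either strand was detectable. The nearest protein-coding start was a median of 20816 bp away. The 156 sites more than 500 kb from any start had a median CTCF score of 881.5 and the Top2b flag at 37.8%, against 1263 and 52.8% at the 2063 sites between 1 and 5 kb.

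The limit of 1 kb set the closest sites apart by a few bases. Just outside it were sites near Sfpq at 1002 bp (CTCF score 924), Kirrel at 1004 bp (267), Hmgxb4 at 1005 bp (1263), Nipbl at 1007 bp (5152) and Aldh1l2 at 1008 bp (1156). Nipbl encodes the protein that loads cohesin onto chromatin. Just inside it were sites with both Stag flags near Pnrc1 at 1000 bp (476), Kif21b at 997 bp (4134), Slc44a4 at 996 bp (364), Erh at 995 bp (2469) and Cep350 at 992 bp (1075). Within the limit lay 3504 motif sites with both flags, which are not described here.

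Of 21418 protein-coding genes on these chromosomes 3878, or 18.1%, held at least 1 both-Stag site in their span. The share rose with gene length, from 2.64% of genes under 10 kb to 73.6% of genes of 300 kb or more, while the number of sites per Mb of span was 8.21 in genes of 10 to 30 kb and 4.19 in those of 300 kb or more. The spans with most sites were partly those of unusual gene models. Gm20388, on chromosome 8, is annotated over 4435 kb that enclose 72 other protein-coding genes and held 71 sites, and the annotated span of Fgfr2, a fibroblast growth factor receptor gene, covers 3009 kb with 31 other protein-coding genes and held 24. Among ordinary models Rora, which encodes a nuclear receptor of the circadian clock and lipid metabolism, held 17 sites over 734 kb on chromosome 9 (68501593 to 69236053), or 23.1 per Mb. Their CTCF scores ran from 179 to 3949 with a median of 748, and 11 of them carried the Top2b flag.

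Camta1, the gene of a calmodulin-binding transcription activator, held 14 sites with a median CTCF score of 1684.5 and 8 Top2b flags. Agap1, a GTPase-activating protein gene, and Nav2, a neuron navigator gene, held 12 sites each, with median CTCF scores of 1526.5 and 1889.5. Nav2 had the highest density of the 8 genes with most sites, 33.0 per Mb over 364 kb. Atxn1, the ataxin gene, held 11 sites with a median score of 1002, and the ion channel gene Accn1 held 10 with a median of 1728.5 but a median Rad21 score of only 179.5. Over these 8 genes, the motif lay on the strand of the gene at 34 of 71 sites in Gm20388, 11 of 24 in Fgfr2, 10 of 17 in Rora, 5 of 14 in Camta1, 6 of 12 in Agap1 and in Nav2, 4 of 11 in Atxn1 and 6 of 10 in Accn1.

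Gene groups of the liver are set beside the 18.1% of all protein-coding genes. Of 21 plasma protein genes 4 (19%) held a site, 1 each, including Apoa1, the main protein of high-density lipoprotein (CTCF score 3163, Rad21 score 598), C3 of complement (2841 and 623) and Plg, plasminogen (1757 and 346). Of 25 genes of hepatocyte transcription factors 7 (28.0%) held 16 sites. Cux2, a repressor expressed mainly in female liver, held 5 with CTCF scores from 721 to 4141, Nr5a2, a regulator of bile acid synthesis, held 3, and Gata4 held 2 with scores of 2511 and 6836. Of 22 genes of liver enzymes and receptors 7 (31.8%) held 12 sites, including 5 in Acaca, the acetyl-CoA carboxylase of fatty acid synthesis, with a median CTCF score of 1867, 2 in Insr, the insulin receptor gene, and 1 in Ass1 of the urea cycle.

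By span the density was 10.9 sites per Mb for plasma proteins, 10.8 for transcription factors and 9.19 for enzymes and receptors, against 6.36 over all protein-coding genes. These densities rest on 4, 16 and 12 sites. Without 1 gene of each list (Cux2 and Acaca, which held most, and Apoa1, 1 of the 4 with a site) they were 8.20, 8.54 and 6.77 per Mb. By length, 13.5% of all protein-coding genes of 10 to 30 kb held a site, at 8.21 per Mb, and 30.8% of those of 30 to 100 kb, at 7.51 per Mb, and the median length was 11.1 kb for the plasma proteins, 33.1 kb for the transcription factors and 22.8 kb for the enzymes and receptors. Genes of neuronal adhesion and synapses, which are expressed mainly in brain and are very long, had a lower density, 2.74 per Mb. Of 20 such genes 17 (85%) held 68 sites, and of all protein-coding genes of 300 kb or more 73.6% held a site, at 4.19 per Mb. Dlgap1, Nrxn3 and Ptprd, which encode proteins of the synapse, held 8 sites each at 9.39, 4.96 and 3.52 per Mb, with median CTCF scores of 973, 1964.5 and 1100.5. The densities are descriptions of lists whose median gene lengths differ, from 11.1 kb for plasma proteins to 1101 kb for the neuronal genes.

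Most windows of 100 kb that held a both-Stag site held only 1, namely 5241 of 8079, and 79 held 5 or more. The richest, with 9 sites, was on chromosome 1 from 88300001 to 88400000, where 11 sites of the whole list lay and none was an anchor. CTCF scores there ran from 181 to 3653 with a median of 2575, 4 motifs were on the + strand and 6 sites carried the Top2b flag. The second, with 8 sites and scores from 441 to 6197, was on chromosome 15 from 101000001 to 101100000 at Acvr1b, Grasp and Nr4a1. The last of these encodes an immediate early nuclear receptor. The third, with 7 sites, was on chromosome 11 from 75200001 to 75300000 at the serpin genes Serpinf1 and Serpinf2, which encode pigment epithelium-derived factor and alpha-2-antiplasmin, and at Smyd4, Tlcd2 and Wdr81. The latter 2 windows held 15 and 13 sites of the whole list and, again, no anchor.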

How the data were processed

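CTCF (4 libraries) and Rad21 (3 libraries) ChIP-seq of male mouse liver was analysed from 3 deposited files. Per the labels and the study's methods, the authors mapped pooled reads of each factor to mm9 with Bowtie2, kept uniquely placed reads and called peaks with MACS2. In the deposited peak lists the score is 10 times −log10 of the q-value, the fold is a ratio of summit fragments to local background, and −log10 p-values and q-values are given per peak. The authors' class list gives the class, a FIMO motif score and strand, and flags for overlap with public Stag1, Stag2 and Top2b peaks. These columns have no header, and the order of the flags was taken from the study's description. The deposited lists do not record the depth of each library, and intervals cover counting error only.

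The members, lists and tests were chosen with earlier results of these data known. Summits came from the pooled list. Starts (69976 positions of 22380 genes) and gene spans came from GENCODE vM1 on NCBIM37. Overlap meant at least 1 bp, with the strongest Rad21 peak used, and 84 both-Stag sites overlapped more than 1. Summit fragments were recovered from fold and −log10 p-value and were whole within 0.05 at 76680 of 76683 CTCF and 67367 of 67369 Rad21 peaks. Measures were compared by the Kolmogorov-Smirnov test with Benjamini-Hochberg adjustment and an AUC with a Hanley-McNeil interval, shares by Newcombe intervals, both tested on simulated data. The signs of differences were counted over chromosomes with at least 10 sites in either set. Sites named are the 10 with the highest CTCF score (1 of which is counted but not reported here), the next 5 by Rad21 score, the 3 with the lowest CTCF score, 5 on either side of the distance limit, and the strongest sites of the 3 commonest words. Genes named are the 8 with most sites and the 3 with most in each gene list, and the 3 richest windows are given. Computations ran in Python 3.11.15 (pandas 2.3.3, SciPy 1.17.1, NumPy 2.4.6, pysam 0.24.0, Numba 0.67.0, Matplotlib 3.10.9).

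The planned share of masked repeats could not be computed, since the genome used carries no masking. Copies of motif words, their comparison with the Top2b flag, the comparisons within Rad21 bins and the densities without 1 gene of each list were added after seeing the data.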

Additional observations from a re-analysis of the deposited data

Results flagged for a closer look

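The X chromosome was left out of the both-Stag sites and of both other sets of distal motif sites, and 387 sites on it met all the other criteria of both-Stag sites, which drew attention as signal in data not used above. Their density was 2.32 per Mb, below the 3.89 to 6.52 per Mb of the other chromosomes. The median CTCF score was 1019 with quartiles of 568.5 and 1567, the median Rad21 score was 265, and the Top2b flag was set at 43.4% (95% Wilson interval 38.6 to 48.4%). The median displacement of the Rad21 summit was 17 bp, and 10.3% had a repeated motif word. The mice are males with 1 X chromosome, and the part of copy number in these values was not tested.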

How the results depend on the processing

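No paired analysis was possible because the lists pool all libraries of a factor, and for the same reason no replicate could be left out. Of 110 recomputed values 90 kept their direction and side of the threshold or stayed within the interval of the main value. Requiring scores of at least 200 reversed the width difference against Stag2-only sites (AUC 0.445) and the displacement against sites lacking Stag2 (0.463), left the anchor distance against the latter no longer called (0.540) and gave a call for the motif score against them (0.611), as did Rad21 summits within 100 bp (0.532). Within CTCF bins the motif score reversed (0.473 and 0.456), as did the width against Stag2-only sites (0.467), while other AUC values moved to 0.790 and 0.811 for Rad21, 0.544 for width against sites lacking Stag2, 0.559 for displacement and 0.590 for anchor distance against Stag2-only sites. There the Top2b difference against sites lacking Stag2 moved to 40.9 points, repeated words to −7.87 and −9.63 points, and the Top2b difference of repeated words to −33.8 points. Within Rad21 bins Top2b differences moved to 15.4, 29.8 and −28.4 points. The causes were not tested. Sites over 5 kb from starts, starts of protein_coding transcripts only, single-copy words, fold, summit fragments and other copy limits changed no call. The number of sites stayed within 1.5 times under 4 other distance rules. Alternatives for masked repeats were not run.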
